A study of Danio rerio with 6 samples.

Results

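The Hox genes are a family of homeobox transcription factor genes, here the rows of the deposited count files whose symbol starts with hoxa, hoxb, hoxc or hoxd followed by a digit. The rule found 49 genes among 36351 gene rows, and they fall into 7 clusters (hoxaa, hoxab, hoxba, hoxbb, hoxca, hoxcb and hoxda) and 13 paralogue groups. RNA had been sequenced in bulk from dsRed-positive cells sorted from zebrafish skeletal tissue at 10 weeks post fertilization. All fish carried ctsk:dsRed, a transgene in which the regulatory region of the osteoclast protease gene cathepsin K drives a red fluorescent protein. There were 3 libraries from clcn7-/- mutants and 3 libraries from their WT siblings, and each library pooled 5000 cells from each of 2 fish. The product of clcn7 exchanges chloride for protons at the lysosome membrane, and osteoclasts use it to acidify the space where bone is dissolved. The labels name no mutant allele, no sex and no part of the skeleton. They call the sorted cells ctsk-positive osteoclasts, and the sort can hold any cell in which the reporter is on.

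Hox genes stand in clusters in which gene order matches the order of expression along the body. Genes at one end (low paralogue numbers) are used in the hindbrain and pharyngeal arches, and genes at the other end (high numbers) in the tail and in the outer part of the paired fins. The cells of connective tissue and bone keep much of this code into adult life, so that it records where in the body a cell came from, whereas the jaw skeleton comes from Hox-free neural crest. Some Hox genes also act in blood cell precursors. The comparisons below ask which paralogue groups were present in the sorted cells and which differed between genotypes.

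The libraries held 22739782 to 26951306 counts over gene rows. Levels are given as CPM, the count divided by the library size after scaling by the trimmed mean of M-values (TMM), unless a sentence says otherwise. No transcript lengths were used, so a CPM compares a gene, or a share, between libraries, and does not rank transcript levels between genes. clcn7 stood at 39.1, 28.03 and 37.8 CPM in clcn7-/- libraries, against 34.0, 30.5 and 26.1 CPM in WT libraries, which overlap and do not check the genotype labels. ctsk stood at 1266, 1055 and 1262 CPM in clcn7-/- libraries, against 1024, 464 and 512 CPM in WT libraries. Genes of other cell types were present as well. The summed level of 8 keratinocyte markers was 15891 to 26108 CPM in clcn7-/- libraries and 41392 to 50265 CPM in WT libraries, while 8 osteoclast markers summed to 2112 to 2959 CPM in clcn7-/- libraries and 1296 to 2771 CPM in WT libraries.

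Posterior genes supplied most Hox reads in both genotypes. All 49 genes together drew 3265, 6301 and 6166 counts in clcn7-/- libraries, against 4135, 8900 and 5764 counts in WT libraries. In CPM this was 141, 221 and 220.5 in clcn7-/- libraries (mean 194 ± 45.9 SD, n = 3), against 163, 351 and 250.4 in WT libraries (mean 255 ± 94.3). The groups overlapped, with WT replicate 2 the highest and clcn7-/- replicate 1 the lowest library, and the log2 ratio of the means was -0.39, or -0.09 without WT replicate 2. Genes of paralogue groups 9 to 13 (23 genes) took 77.7% to 81.3% of the summed Hox CPM in clcn7-/- libraries and 85.4% to 90.0% in WT libraries. Group 13 alone, with 6 genes, took 33.5% to 40.4% in clcn7-/- libraries and 49.6% to 54.2% in WT libraries.

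Groups 1 to 8 took the smaller part of the Hox reads, though some of their genes overlap another Hox gene, where reads can be left out. Groups 1 to 3 (10 genes) took 8.41% to 10.8% of the summed Hox CPM in clcn7-/- libraries and 6.44% to 8.22% in WT libraries. Groups 4 to 8 (16 genes) took 8.39% to 12.6% in clcn7-/- libraries and 3.53% to 6.38% in WT libraries. A mean of at least 1 CPM over the 6 libraries was reached by 32 of the 49 genes, 5 CPM by 12 genes and 10 CPM by 5 genes. hoxb1a, which marks a hindbrain segment in the embryo, had no count in any library. This allows a level of up to 0.111 to 0.132 CPM per library (3 counts over the library size without TMM scaling, counting error only).

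**Figure D1:**
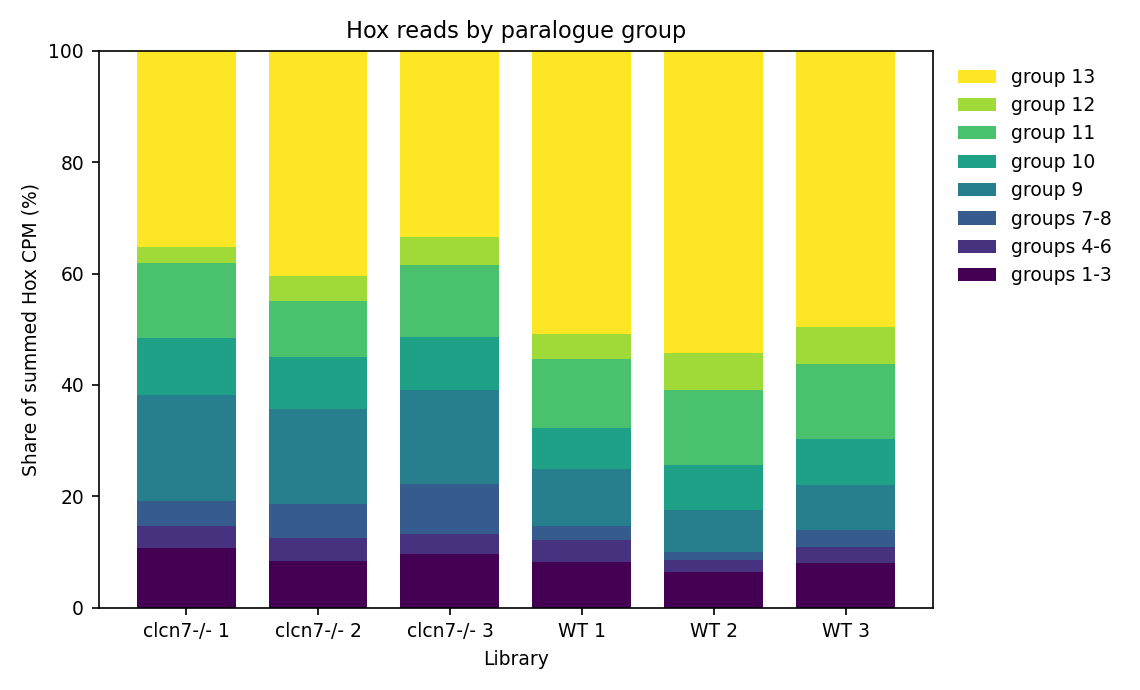
Share of the summed Hox CPM (vertical axis, percent) taken by each paralogue group or band of groups, in 1 bar per library, with clcn7-/- libraries left of WT libraries. Group 13 fills 33.5% to 40.4% of the clcn7-/- bars and 49.6% to 54.2% of the WT bars, and group 9 fills 16.9% to 18.9% of the clcn7-/- bars and 7.65% to 10.3% of the WT bars.

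Of the 49 genes, 39 passed the filter on low counts and were tested. The other 10 were hoxa1a, hoxa4a, hoxa5a, hoxb1a, hoxb1b, hoxb5b, hoxb6b, hoxb8b, hoxc1a and hoxd4a, and none of them had more than 16 counts in a library. Of the 39 tested, 2 were higher in clcn7-/- cells at an adjusted p under 0.05 (edgeR quasi-likelihood test, Benjamini-Hochberg adjustment over all 20438 genes tested). That is 5.13% of the tested members, beside 9.91% of all tested genes called higher and 14.7% called in either direction. No member was called lower by edgeR, beside 4.83% of all tested genes. At an unadjusted p under 0.05, 4 members were higher and 5 lower, beside 16.4% and 13.9% of all tested genes. DESeq2 called 3 members higher and 1 lower (beside 13.5% and 9.42% of all genes it tested), and limma-voom called the same 2 genes higher as edgeR and none lower (beside 11.3% and 6.47%). The share of Hox genes called was thus near or under that of genes in general.

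Both called genes belong to paralogue group 9, whose genes mark the trunk and, in mouse, the rear ribs and the base of the limb. hoxd9a (row LL0000012288 of the count files) stood at 8.70, 16.3 and 13.9 CPM in clcn7-/- libraries, against 5.55, 7.22 and 4.95 CPM in WT libraries. Every clcn7-/- library lay above every WT library, and the log2 fold change was 1.13 ± 0.29 (SE; edgeR adjusted p = 0.0368). hoxb9a (row LL0000012266) stood at 11.1, 14.5 and 12.01 CPM in clcn7-/- libraries, against 4.09, 8.05 and 5.47 CPM in WT libraries. Its libraries did not overlap either, at 1.09 ± 0.28 on the log2 scale (clcn7-/- over WT, edgeR adjusted p = 0.0404). They were the only tested members whose clcn7-/- libraries all lay above the WT libraries, beside 19.4% of all tested genes, and 37% of all tested genes did not overlap in one direction or the other.

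Both calls were close to the threshold and depended on single libraries. Without WT replicate 1, 2 or 3, the adjusted p of hoxd9a was 0.0905, 0.063 and 0.125, and without clcn7-/- replicate 2 or 3 it was 0.0968 and 0.0903, all in edgeR. For hoxb9a it was 0.0737 and 0.123 without WT replicate 1 or 3, and 0.0753, 0.101 and 0.0809 without clcn7-/- replicate 1, 2 or 3. Without each library in turn the log2 fold change lay between 0.94 and 1.35 for hoxd9a and between 0.93 and 1.42 for hoxb9a.

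The remaining genes of group 9 did not share this pattern. hoxa9b stood at 4.93, 3.47 and 6.08 CPM in clcn7-/- libraries, against 2.24, 6.35 and 5.04 CPM in WT libraries (log2 fold change 0.09 ± 0.42, below 0 under 4 alternatives), and hoxc9a also overlapped between genotypes (log2 fold change -0.31 ± 0.41). hoxa9a, the gene with the fewest reads of the group, stood at 0.216, 0.807 and 0.215 CPM in clcn7-/- libraries, against 0.984, 1.18 and 0.912 CPM in WT libraries, and did not pass the test (log2 fold change -1.30 ± 0.68, edgeR adjusted p = 0.245). The sum of the group 9 genes without hoxb9a and hoxd9a was 6.91 to 11.2 CPM in clcn7-/- libraries and 7.16 to 11.6 CPM in WT libraries.

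**Figure D2:**
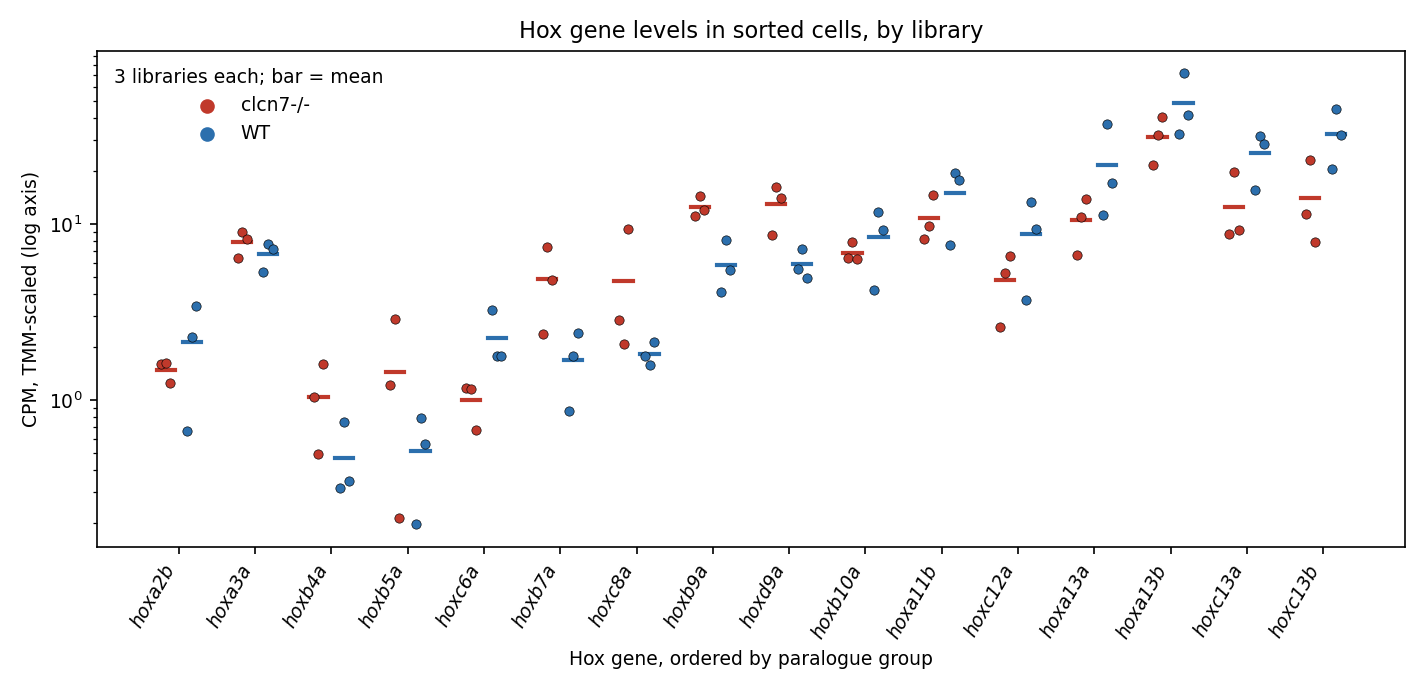
CPM (vertical log axis) of the 16 Hox genes named by rule, in order of paralogue group, with each library a point and the mean of 3 libraries a bar, clcn7-/- left of WT for each gene. The libraries separate for hoxb9a, hoxd9a and hoxc6a and overlap for each of the other 13 genes.

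Group 13 genes pattern the end of the tail and the fin rays: zebrafish that lack hoxa13a, hoxa13b and hoxd13a form shortened fin rays, and hoxc13a and hoxc13b are expressed in the tail fin. hoxa13b had the most reads of all Hox genes, at 21.6, 31.8 and 40.5 CPM in clcn7-/- libraries, against 32.2, 71.6 and 41.3 CPM in WT libraries. The ranges overlapped, and the gene did not pass the test (log2 fold change -0.63 ± 0.33, edgeR adjusted p = 0.253). Its duplicate hoxa13a stood at 6.67, 10.9 and 13.8 CPM in clcn7-/- libraries, against 11.2, 36.9 and 16.99 CPM in WT libraries (log2 fold change -1.05 ± 0.45, edgeR adjusted p = 0.164).

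The hoxc13 pair had the lowest p of the group. hoxc13b stood at 11.3, 23.1 and 7.87 CPM in clcn7-/- libraries, against 20.5, 45.2 and 32.0 CPM in WT libraries. Its ranges overlapped through clcn7-/- replicate 2, at -1.21 ± 0.43 on the log2 scale (clcn7-/- over WT, edgeR adjusted p = 0.102). hoxc13a stood at 8.79, 19.6 and 9.26 CPM in clcn7-/- libraries, against 15.7, 31.5 and 28.5 CPM in WT libraries (log2 fold change -1.004 ± 0.38, edgeR adjusted p = 0.12). Both passed without clcn7-/- replicate 2, at log2 fold changes of -1.76 and -1.48 (edgeR adjusted p = 0.0291 for hoxc13b and 0.0333 for hoxc13a), and hoxc13b passed in DESeq2 (adjusted p = 0.0266). Under the alternatives as a whole the edgeR, DESeq2 or limma adjusted p ranged from 0.025 to 0.322 for hoxc13b and from 0.0318 to 0.344 for hoxc13a.

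The other 2 genes of the group had few reads. hoxb13a lay between 0.572 and 2.42 CPM in clcn7-/- libraries and between 1.495 and 3.196 CPM in WT libraries, and hoxd13a between 0.260 and 1.82 CPM in clcn7-/- libraries and between 1.495 and 2.78 CPM in WT libraries. Summed over the 6 genes, group 13 stood at 49.7, 89.2 and 73.9 CPM in clcn7-/- libraries, against 82.6, 190.4 and 124 CPM in WT libraries. clcn7-/- replicate 2 lay above WT replicate 1, so the sums overlapped, at a log2 ratio of the means of -0.90, and -0.54 without WT replicate 2.

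Below group 13, the genes of groups 10 to 12 act in the rear trunk, the tail and the middle part of the fins. All 5 tested genes of group 11 and all 3 of group 12 had a fold change below 0, of which hoxd11a turned to 0.33 without WT replicate 2, and none passed the edgeR test. hoxa11b, the group 11 gene with the most reads, stood at 8.22, 9.75 and 14.6 CPM in clcn7-/- libraries, against 7.56, 19.5 and 17.6 CPM in WT libraries (log2 fold change -0.45 ± 0.38). hoxc12a stood at 2.60, 5.26 and 6.54 CPM in clcn7-/- libraries, against 3.70, 13.4 and 9.30 CPM in WT libraries (log2 fold change -0.87 ± 0.51). hoxb10a stood at 6.36, 7.86 and 6.33 CPM in clcn7-/- libraries, against 4.21, 11.8 and 9.21 CPM in WT libraries (log2 fold change -0.29 ± 0.37). For all 3 genes WT replicate 1 lay below at least 2 of the clcn7-/- libraries, while WT replicate 2 held the highest value.

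WT replicate 2 held the highest level of 16 of the 18 tested genes of groups 10 to 13, and clcn7-/- replicate 1 the lowest level of 9. Over all 39 tested Hox genes these numbers were 21 and 13. They were not counted over genes in general, so a trait of the library and one of these genes cannot be told apart. Of the 18 genes of groups 10 to 13, 17 had a fold change below 0, with a median of -0.84 on the log2 scale, beside 53.5% of all tested genes below 0 and a median of -0.05. Without WT replicate 2, 14 of the 18 were below 0 and the median was -0.40, beside 50.5% of all tested genes, while all 6 genes of group 13 stayed below 0 without each library in turn. The exception was hoxd10a, at 1.99, 5.72 and 6.08 CPM in clcn7-/- libraries, against 2.68, 5.17 and 2.39 CPM in WT libraries. The clcn7-/- libraries lay wholly below the WT libraries for 3 of the 18 genes (hoxa11a, hoxc10a and hoxc12b), beside 17.6% of all tested genes. Marker lists of other cell types, described further below, also had medians away from 0 in the same fit. These were -0.96 over 13 osteoblast, -0.59 over 12 mesenchyme and -1.47 over 8 keratinocyte markers. The other way went 7 neutrophil markers, at 3.03, and 8 macrophage markers, at 2.94. Genes of 1 library share its cells, so these counts and medians are descriptions of 6 libraries and carry no test.

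**Figure D3:**
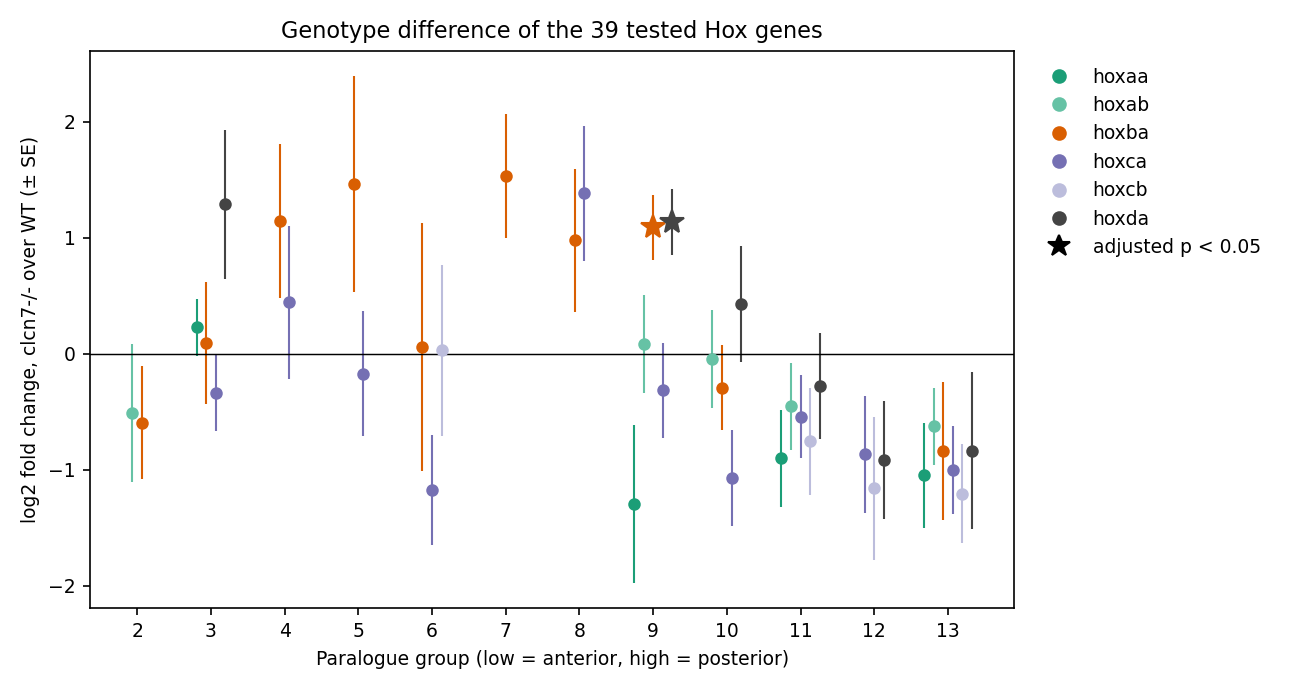
log2 fold change of clcn7-/- over WT with its SE (vertical axis) for the 39 tested Hox genes by paralogue group (horizontal axis), coloured by cluster, with stars for the 2 genes that passed the edgeR test. Fold changes of groups 11 to 13 lie below 0 (hoxd11a above 0 without WT replicate 2), and the stars are hoxb9a and hoxd9a in group 9.

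In the middle of the code, genes of groups 4 to 8 act in the neck and trunk, and fold changes above 0 were the more common: 8 of 10 tested genes, with a median of 0.71 (6 of 10 with upper-quartile factors or without clcn7-/- replicate 2). None passed the edgeR test. At an unadjusted edgeR p under 0.05, hoxb7a and hoxc8a were higher and hoxc6a lower, beside 16.4% and 13.9% of all tested genes. Of all tested genes 53.5% had a fold change below 0, with a median of -0.05 on the log2 scale. hoxb7a stood at 2.38, 7.37 and 4.83 CPM in clcn7-/- libraries, against 0.866, 1.78 and 2.39 CPM in WT libraries. Its clcn7-/- replicate 1 lay just under WT replicate 3, at 1.54 ± 0.53 on the log2 scale (clcn7-/- over WT, edgeR adjusted p = 0.0963), and it passed in DESeq2 (adjusted p = 0.029). hoxc8a stood at 2.86, 2.07 and 9.37 CPM in clcn7-/- libraries, against 1.77, 1.58 and 2.13 CPM in WT libraries. That difference rested on clcn7-/- replicate 3, without which the log2 fold change was 0.43, against 1.38 ± 0.59 with all libraries (edgeR adjusted p = 0.158).

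The lower groups of this band had few reads. hoxb4a, known in vertebrates for its part in blood stem cells, stood at 1.04, 0.491 and 1.61 CPM in clcn7-/- libraries, against 0.315, 0.750 and 0.348 CPM in WT libraries. hoxb5a stood at 1.21, 2.88 and 0.215 CPM in clcn7-/- libraries, against 0.197, 0.789 and 0.565 CPM in WT libraries, and the ranges of both genes overlapped. hoxc6a ran the other way, at 1.17, 1.16 and 0.679 CPM in clcn7-/- libraries, against 3.23, 1.78 and 1.78 CPM in WT libraries. Its libraries did not overlap, and it did not pass the test (log2 fold change -1.17 ± 0.47, edgeR adjusted p = 0.142).

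Of the anterior genes, hoxa3a, a gene of the rear pharyngeal arches, had the most reads. It stood at 6.41, 8.98 and 8.26 CPM in clcn7-/- libraries, against 5.31, 7.65 and 7.21 CPM in WT libraries (log2 fold change 0.23 ± 0.25, edgeR adjusted p = 0.585). hoxa2b, which gives the second arch its identity, stood at 1.60, 1.61 and 1.25 CPM in clcn7-/- libraries, against 0.669, 2.29 and 3.43 CPM in WT libraries (log2 fold change -0.51 ± 0.59). The summed level of groups 1 to 3 was 15.3, 18.6 and 21.5 CPM in clcn7-/- libraries, against 13.4, 22.6 and 20.1 CPM in WT libraries. These overlapped, and the log2 ratio of the means was -0.02 with TMM and 0.14 with library size alone.

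The contrast between groups 9 and 13 can be read within each library, where scaling between libraries has no part. The summed CPM of group 9 divided by that of group 13 was 0.538, 0.422 and 0.503 in clcn7-/- libraries, against 0.203, 0.141 and 0.162 in WT libraries. The libraries did not overlap, and the ratio of the means was 2.89. With hoxb9a and hoxd9a left out of group 9, the ratio was 0.140, 0.0774 and 0.152 in clcn7-/- libraries, against 0.0867, 0.0609 and 0.0776 in WT libraries, which overlapped at clcn7-/- replicate 2. This ratio was chosen after the values of the single genes were seen and has no test. Along hoxda, a cluster of 7 genes, the log2 fold change was 1.29 for hoxd3a, 1.13 for hoxd9a, 0.43 for hoxd10a, -0.28 for hoxd11a (0.33 without WT replicate 2), -0.92 for hoxd12a and -0.83 for hoxd13a, and hoxd4a was not tested. Across the 39 tested genes Spearman's rho between paralogue number and log2 fold change was -0.58. Within clusters it was -0.94 over the 6 tested genes of hoxda, -0.47 over 10 of hoxca and -0.19 over 10 of hoxba. All these points come from the same 6 libraries, so the values of rho are descriptions and carry no test. The values of rho were not planned and were not repeated without each library in turn.

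**Figure D4:**
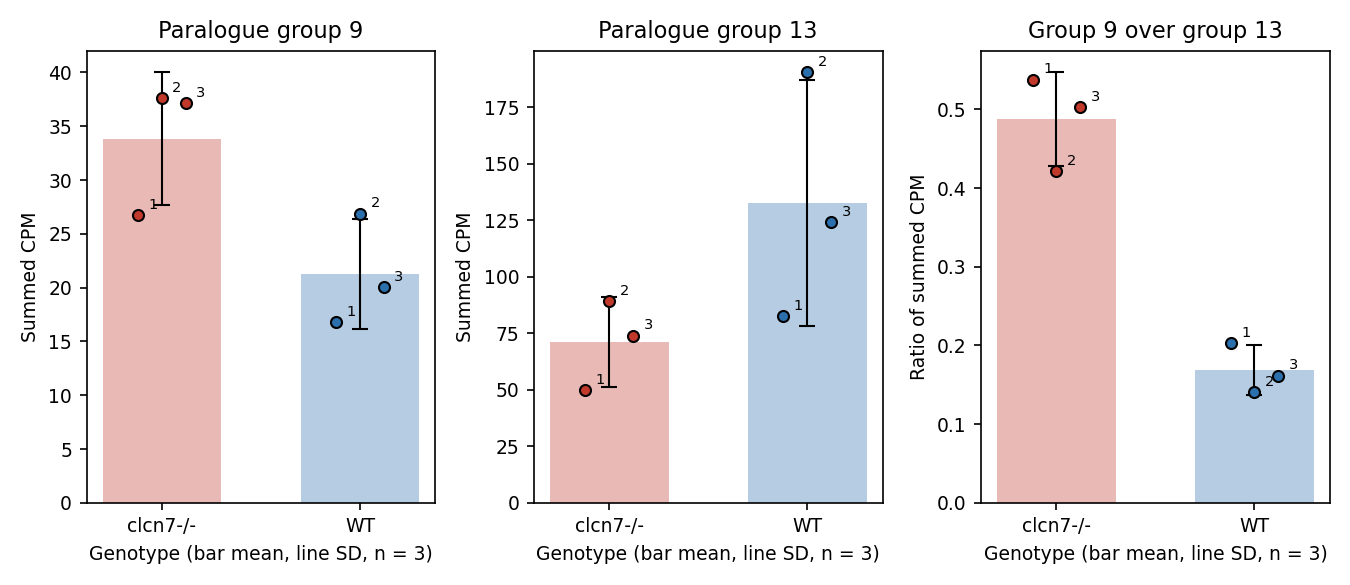
Summed CPM of paralogue group 9 (left), of group 13 (middle) and their ratio within each library (right), with points for libraries numbered by replicate, bars for means and lines for SD (n = 3), clcn7-/- left of WT. Both sums overlap between genotypes, while the ratio is 0.422 to 0.538 in clcn7-/- libraries and 0.141 to 0.203 in WT libraries.

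By cluster, hoxba and hoxda held larger shares of the Hox CPM in mutants, and hoxcb and hoxaa smaller ones. hoxba took 18.6%, 19.98% and 16.2% in clcn7-/- libraries, against 9.14%, 9.30% and 11.2% in WT libraries. hoxda took 11.8%, 14.6% and 13.98% in clcn7-/- libraries, against 8.88%, 8.45% and 8.28% in WT libraries. hoxcb, of which hoxc13b is the gene with the most reads, took 10.4%, 13.1% and 5.97% in clcn7-/- libraries, against 15.6%, 16.4% and 15.2% in WT libraries. hoxaa took 10.8%, 10.7% and 11.6% in clcn7-/- libraries, against 12.7%, 14.96% and 11.8% in WT libraries, where clcn7-/- replicate 3 lay just under WT replicate 3. The shares of these 4 clusters did not overlap between genotypes, while the summed CPM of each of the 4 did. Shares are parts of a whole, so they do not move independently of each other. hoxba and hoxda also hold the called genes hoxb9a and hoxd9a, and the shares of these clusters were not computed without them. Among single tested genes 37% did not overlap in CPM, which is a different measure from a share. hoxab, with hoxa13b, took 23.5% to 31.9% in clcn7-/- libraries and 27.96% to 30.9% in WT libraries, and hoxbb took under 1% in every library.

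Markers of other cell types moved with the genotype. The counts below stand beside 9.91% of all tested genes called higher and 4.83% called lower by edgeR. All 7 neutrophil markers and all 8 macrophage markers rose (edgeR adjusted p under 0.05), with summed levels of 1209 to 1670 CPM and 909 to 1961 CPM in clcn7-/- libraries, against 132 to 192 CPM and 101 to 247 CPM in WT libraries. Of 13 osteoblast markers 5 fell, with sums of 3692 to 4888 CPM in clcn7-/- libraries and 5833 to 8576 CPM in WT libraries. Of 12 mesenchyme markers 3 fell (prrx1a, prrx1b and twist2), with sums of 5739 to 8715 CPM in clcn7-/- libraries and 10211 to 11512 CPM in WT libraries. The call of twist2 was kept without each library in turn, and those of prrx1a and prrx1b were lost without clcn7-/- replicate 2 or 3 or WT replicate 2 or 3 (edgeR adjusted p = 0.0753 to 0.113 for prrx1a and 0.0902 to 0.125 for prrx1b). Of 8 keratinocyte markers 5 fell, and of 6 red blood cell markers 5 rose, with sums of 903 to 2409 CPM in clcn7-/- libraries and 289 to 523 CPM in WT libraries. Neurons also use Hox genes; none of 8 tested neuron and glia markers passed the edgeR test (1 at an unadjusted p under 0.05, and mpz in DESeq2), and the 9 listed markers, 1 of them too low to test, summed to 49.1 to 140.2 CPM in clcn7-/- libraries and 39.7 to 89.0 CPM in WT libraries. Of 7 lymphocyte markers 2 rose, with sums of 24.2 to 79.1 CPM in clcn7-/- libraries and 16.9 to 19.4 CPM in WT libraries, as did 1 of 5 endothelial and 1 of 5 tested muscle markers. Of 8 osteoclast markers nfatc1, the gene of a transcription factor that drives osteoclast formation, fell (log2 fold change -0.65 ± 0.17, edgeR adjusted p = 0.0415), and no other passed. The median over the 8 was above 0, at 0.30. At an unadjusted edgeR p under 0.05, ctsk (0.84 ± 0.30) and ocstamp (1.60 ± 0.50) were higher, beside 16.4% of all tested genes. The call of nfatc1 was lost with library size alone (0.0888) and without clcn7-/- replicate 1 or 3 or WT replicate 2 or 3 (0.103 to 0.17). No chondrocyte marker (of 10) or pigment cell marker (of 4 tested) passed in edgeR, with 2 and 1 at an unadjusted p under 0.05. No marker of these lists was at 0 in all 6 libraries. In bulk samples fewer cells of a type and less RNA per cell cannot be told apart, and the part of these markers in the Hox values was not tested.

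Set against the bone and connective tissue markers, the Hox sum did not separate the genotypes. Per 1000 CPM of osteoblast markers there were 38.3, 45.2 and 53.2 Hox CPM in clcn7-/- libraries, against 22.6, 40.9 and 42.9 in WT libraries. Per 1000 CPM of mesenchyme markers there were 16.2, 27.3 and 38.4 Hox CPM in clcn7-/- libraries, against 15.1, 30.5 and 24.5 in WT libraries. Group 9, which holds the called genes hoxb9a and hoxd9a, was apart on both scales. It stood at 7.25 to 8.97 CPM per 1000 osteoblast marker CPM in clcn7-/- libraries and 2.33 to 3.44 in WT libraries. Per 1000 mesenchyme marker CPM it stood at 3.07 to 6.48 CPM in clcn7-/- libraries and 1.56 to 2.33 in WT libraries. Group 13 overlapped on both, at 13.5 to 18.3 per 1000 osteoblast marker CPM in clcn7-/- libraries and 11.5 to 22.2 in WT libraries, and at 5.71 to 12.9 per 1000 mesenchyme marker CPM in clcn7-/- libraries and 7.65 to 16.5 in WT libraries. Both marker sums were lower in every clcn7-/- library, which raises these ratios. The group 9 sum itself overlapped, at 26.7 to 37.6 CPM in clcn7-/- libraries and 16.8 to 26.9 CPM in WT libraries. Without hoxb9a and hoxd9a it was 6.91 to 11.2 CPM in clcn7-/- libraries and 7.16 to 11.6 CPM in WT libraries. Ratios to the markers were not computed without these genes, so the separation of group 9 is no result separate from their calls. The ratios of groups 9 and 13 to the markers were not among the planned comparisons and have no test.

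Genes that work with or above Hox genes were read from the same fit, in which 9.91% of all tested genes were called higher and 4.83% lower. DESeq2 called 13.5% higher and 9.42% lower, and limma-voom 11.3% and 6.47%. With few genes called per list, the counts below describe the lists and were not tested against genes in general. Hox proteins bind DNA together with TALE homeodomain proteins. Of 13 tested TALE genes meis1b fell and no other passed, with a median log2 fold change of -0.13 (2 called lower in DESeq2, with upper-quartile factors or without clcn7-/- replicate 1). meis1b stood at 60.6, 45.6 and 35.1 CPM in clcn7-/- libraries, against 82.8, 85.8 and 85.1 CPM in WT libraries (log2 fold change -0.84 ± 0.20, edgeR adjusted p = 0.0307). Its call was lost without WT replicate 1, 2 or 3 (adjusted p = 0.0702, 0.0964 and 0.103) and without clcn7-/- replicate 2 or 3 (adjusted p = 0.0771 and 0.0529).

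Polycomb and trithorax proteins hold Hox genes off or on. Of 29 tested genes of these complexes 2 fell, the Polycomb repressive complex 1 genes phc2b (log2 fold change -0.93 ± 0.14, edgeR adjusted p = 0.0059) and bmi1b (-0.64 ± 0.17, adjusted p = 0.0416), and the median was -0.05. None was called higher in edgeR (4 at an unadjusted p under 0.05), but 2 were in DESeq2, with library size alone or without WT replicate 1, and 3 in limma-voom. The count called lower lay between 1 and 3 over all alternatives. The call of phc2b was kept without each library in turn, and that of bmi1b was lost without WT replicate 1, 2 or 3 (adjusted p = 0.0675, 0.142 and 0.136) and without clcn7-/- replicate 2 or 3 (0.101 and 0.108), as well as with library size alone (0.074) and with no low-count filter (0.0597). Retinoic acid sets Hox boundaries in the embryo. Of 20 genes of its synthesis, breakdown, transport and receptors 3 rose and 2 fell, at a median of -0.26. The number called lower was 5 in DESeq2 and in limma-voom, beside 9.42% and 6.47% of all genes each tested. It was 4 with upper-quartile factors and with the replicate block, and 1 without WT replicate 1, 2 or 3. The number called higher was 1 without clcn7-/- replicate 1 or WT replicate 2 or 3. The receptor genes rxrga (log2 fold change 1.79 ± 0.22, edgeR adjusted p = 0.00258), rarab (0.94 ± 0.19, adjusted p = 0.0165) and rxrgb rose, and rbp4, the plasma retinol carrier (-1.35 ± 0.21, adjusted p = 0.0058), and the retinaldehyde dehydrogenase gene aldh1a3 (-1.06 ± 0.24, adjusted p = 0.0263) fell. rarab was not called without WT replicate 2 or 3 (adjusted p = 0.054 and 0.0541) or clcn7-/- replicate 1 (0.0522), nor aldh1a3 without WT replicate 1, 2 or 3 (0.0568, 0.0789 and 0.1) or clcn7-/- replicate 2 (0.0662). rxrgb (1.13 ± 0.29, edgeR adjusted p = 0.0406) lost its call with upper-quartile factors (0.0526) and without each library in turn except clcn7-/- replicate 2 (0.0792 to 0.12).

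Other genes that mark position were also read. Of 16 tested genes of the Hox-free head skeleton and the arches, dlx2b (log2 fold change -1.23 ± 0.27, edgeR adjusted p = 0.0241) and alx1 (-0.72 ± 0.19, adjusted p = 0.0439) fell, at a median of -0.59, beside 4.83% of all tested genes called lower. The number called lower was 4 in DESeq2 and in limma-voom, beside 9.42% and 6.47% of all genes each tested. It was 1 with library size alone, with no low-count filter and without clcn7-/- replicate 3 or WT replicate 1, and 0 without WT replicate 2 or 3. Over all alternatives the adjusted p lay between 0.00113 and 0.0899 for dlx2b and between 0.00829 and 0.135 for alx1, and both calls were lost without WT replicate 1, 2 or 3 or clcn7-/- replicate 2. dlx2b was also lost without clcn7-/- replicate 1, and alx1 without clcn7-/- replicate 3, with library size alone and with no low-count filter. Of 3 tested genes of paired fin identity none passed edgeR (1 at an unadjusted p under 0.05, and none in DESeq2). tbx5a, a pectoral fin gene, stood at 4.33, 7.89 and 21.7 CPM in clcn7-/- libraries, against 6.18, 15.5 and 15.2 CPM in WT libraries, and pitx1, a pelvic fin gene, at 9.35, 8.03 and 7.26 CPM in clcn7-/- libraries, against 8.66, 16.5 and 16.2 CPM in WT libraries. Without WT replicate 1, pitx1 passed, at -0.96 on the log2 scale (edgeR adjusted p = 0.0286).

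Fin ray genes gave no edgeR call among 6 tested (1 at an unadjusted p under 0.05, msx1b, which passed in DESeq2, in limma-voom, with upper-quartile factors and without WT replicate 1). The homeobox gene msx1b stood at 88.8, 109 and 83.6 CPM in clcn7-/- libraries, against 107, 174 and 177 CPM in WT libraries, and msx3 at 91.7, 130.1 and 117 CPM in clcn7-/- libraries, against 118, 174 and 147 CPM in WT libraries. Of the caudal and cluster-linked genes, evx1 and gdf11 were the 2 tested. The tail genes cdx1a, cdx1b, cdx4, tbxta and evx2 did not pass the filter on low counts. Among them tbxta stood at 2.96 CPM in WT replicate 2 and at no more than 0.175 CPM in any other library. evx1, which lies beside the hoxa genes in vertebrates and is needed for fin ray joints in zebrafish, stood at 3.77, 1.19 and 8.58 CPM in clcn7-/- libraries, against 11.96, 27.4 and 8.25 CPM in WT libraries. It did not pass in edgeR (log2 fold change -1.81 ± 0.70, adjusted p = 0.126) and passed in DESeq2 (adjusted p = 0.0282), and WT replicate 2 again held the highest level. gdf11 lay between 0.912 and 1.39 CPM in clcn7-/- libraries and between 0.826 and 1.62 CPM in WT libraries.

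The counting limits some members. In the RefSeq annotation of the GRCz12tu assembly, which holds all 49 genes and is not the authors' assembly, 18 of them overlap another Hox gene: hoxc3a overlaps 5 genes from hoxc4a to hoxc9a, hoxb3a overlaps hoxb4a, hoxb5a and hoxb6a, hoxa3a overlaps hoxa4a and hoxa5a, hoxb1b overlaps hoxb5b and hoxb6b, and hoxd3a overlaps hoxd4a. Reads in such overlaps can be left out or given to the longer gene, so the levels of these 18 genes are uncertain, and neither hoxb9a, hoxd9a nor any gene of groups 10 to 13 is among them. All but hoxc9a belong to groups 1 to 8, so the shares of these groups beside the posterior ones are uncertain too. The authors' deposited table gives values for 41 Hox symbols, and 40 of them match the count files to within 0.5 reads in all 6 libraries. The row named hoxa4a in the authors' deposited table is the exception: it carries the identifier of hoxa3, and its values equal 148, 256 and 231 reads in clcn7-/- libraries, against 136, 195 and 167 in WT libraries, where the count files hold 0, 0 and 0 for hoxa4a in clcn7-/- libraries, against 1, 1 and 1 in WT libraries. The counts of hoxa3a and hoxa4a add up to these reads. The authors' deposited table gives an adjusted p under 0.05 to hoxd9a (0.00454), hoxb9a (0.00498) and hoxb7a (0.0372), all higher in clcn7-/- cells, and to hoxc13b (0.0313), lower, beside 12.3% and 8.28% of its genes with an adjusted p.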

How the data were processed

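Bulk RNA sequencing of sorted dsRed-positive cells was taken up from the processed tables. The submitters' processing notes name the GRCz11 assembly, HTSeq 0.9.1, STAR 2.7.0a, DESeq2 and Trim Galore. Annotation, strand setting and options are not given in what was used here. The deposited counts are whole reads per gene, in 1 file per library. Rows that name no gene held 20.1% to 23.0% of all counts and were left out. A further table by the authors holds, per the file headers, log2 values by library, log2 fold changes and adjusted p-values. For 96.9% to 97.1% of the genes matched by symbol, its library values equal log2 of the count over a size factor plus 4, to within 0.5 reads. The size factors were estimated from these values and the counts.

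All genes were fitted with edgeR 4.0.16 in R 4.3.3: filterByExpr (minimum count 10, minimum total 15), TMM factors, and a quasi-likelihood test with genotype as the only term. p-values were adjusted by Benjamini-Hochberg over 20438 genes, never over the Hox list alone. The SE is the fold change divided by the square root of F, and biological variation across genes was 35.3% (common BCV). Floors from counts cover counting error only. The labels call the libraries biological replicates. Alternatives were RLE and upper-quartile factors, library size alone, no filter, a stricter filter (at least 1 CPM in 3 libraries, mean count at least 10), DESeq2 1.42.0, voom with quality weights per sample (limma 3.58.1), a replicate block, and leaving out each library. The pipeline was tested on simulated data.

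The members, gene lists, alternatives and rules were chosen with earlier results of these data known. Named Hox genes are those called, the 10 with the highest mean CPM, and the one with the highest mean CPM in each paralogue group with a tested member. hoxa9a, hoxa9b, hoxb13a, hoxc9a, hoxd13a, hoxd10a, the hoxda row of fold changes and the ratio of groups 9 and 13 were added after their values were seen. The ratios of groups 9 and 13 to the marker sums and the values of Spearman's rho were also outside the planned comparisons. In position and cofactor lists up to 2 higher and 2 lower called genes, or the 2 with the highest CPM, are named. rxrgb, 3 mesenchyme markers, nfatc1, ocstamp and mpz were named after their values were seen. Counts of fold changes below 0 were repeated without each library, also after their values were seen. Marker lists are given by counts, sums and, for some, medians.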

Additional observations from a re-analysis of the deposited data

How the results depend on the processing

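The 2 Hox genes called higher became 1 with upper-quartile factors (hoxd9a; hoxb9a then had an edgeR adjusted p of 0.0529) and 3 in DESeq2, and 0 to 1 when 1 library was left out. The 0 called lower became 1 in DESeq2 and 0 to 2 when 1 library was left out (hoxc13a and hoxc13b without clcn7-/- replicate 2). Fewer samples were fitted without a library; the cause of the other changes was not tested. Of 222 alternative values of the 16 Hox genes named by rule, 202 kept their direction and side of the threshold. Most of these genes were not called to begin with, so this count says little about the calls. hoxb9a was called under 8 of 14 alternatives and hoxd9a under 9 of 14. Without each library in turn the log2 fold change of hoxb10a ran from -0.57 to 0.061 (without WT replicate 2), that of hoxa2b from -0.90 to 0.055 (without WT replicate 3), that of gdf11 from -0.35 to 0.14 (without WT replicate 2), and that of tbx5a from -0.9996 to 0.27, above 0 without clcn7-/- replicate 1 or 2 or WT replicate 2 or 3. That of hoxa9b ran from -0.20 (without WT replicate 1) to 0.43, and was -0.019 with upper-quartile factors, -0.068 in limma-voom and -0.11 without clcn7-/- replicate 3; that of hoxd11a ran from -0.59 to 0.33 (without WT replicate 2). With library size alone gdf11 was at 0.013 and tbx5a at 0.063; none of these passed the test. The median log2 fold change over the tested genes was -0.05 for TMM, 0.10 for library size alone and -0.16 for upper-quartile factors, and the sum of group 10 (0.03 for library size alone) and of group 3 (-0.04 for upper-quartile factors) changed sign. The log2 ratio between genotypes of group 9 over group 13 stayed between 1.42 and 1.68 without each library in turn. With hoxb9a and hoxd9a left out of group 9 it stayed between 0.49 and 0.97. Both ratios were chosen after the values were seen.

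Replicate numbers are shared between genotypes, and nothing in the labels says that they pair samples. The deviations of same-numbered samples correlated at 0.24, 0.03 and 0.16, not above 0.1 in all 3 pairs. Those of differently numbered samples correlated at -0.21 to 0.035. These values do not settle whether samples were paired. With the number as a replicate block, 3 Hox genes were called higher (hoxb7a, hoxb9a and hoxd9a) and 2 lower (hoxc13a and hoxc13b). The block also ended the calls of bmi1b, rxrgb, prrx1a and prrx1b (edgeR adjusted p = 0.0668, 0.061, 0.0519 and 0.0603) and gave one to ctsk (0.0454) and mpz (0.0486). With the block included, ctsk was called under 4 of 14 alternatives. Its edgeR, DESeq2 or limma adjusted p ranged from 0.00515 to 0.269 under them.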
